A study of Mus musculus with 17 samples.

Results

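Enteric glia and neural progenitor genes were examined as 8 named genes (Gfap, S100b, Cdh19, Sox10, Foxd3, Sox2, Nes and Erbb3), taken by symbol from the 23719 rows of a table of read counts. All 8 passed the filter on low counts and were tested together with every other tested gene, 14146 in all. RNA was sequenced from the colon of C57BL/6 male mice aged 32 to 34 weeks, in a model of Gulf War Illness (GWI). The 9 Control mice drank water, and the 8 GWI mice drank water with pyridostigmine bromide for 7 days at 2 mg/kg, a drug that blocks acetylcholinesterase. The drug was then withdrawn for 21 days and tissue was taken on day 30. The question was which glial and progenitor transcripts differed between GWI and control colons after this recovery. Each library came from 1 mouse, and total counts ran from 16293537 to 20741212.

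Enteric glia surround the neurons of the myenteric and submucosal ganglia and also lie along nerve fibres in the muscle and mucosa. They descend from the neural crest, and SOX10 and the receptor ERBB3 are needed for that lineage to survive and mature. Glia of the adult gut keep some progenitor genes in use, and GFAP and S100B are the proteins most often stained to find them.

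Several libraries stood apart before any comparison. Control replicate 9 had the lowest scaling factor, 0.799, and its 10 most abundant genes held 23.1% of its counts. Smooth muscle markers summed to between 3690 and 23920 CPM (counts scaled to a common library total) in Control mice, where replicates 7, 8 and 9 were the lowest, and to between 3658 and 11830 CPM in GWI mice. Mice that shared the first part of a label name, whose meaning the labels do not give, resembled each other, with a consensus correlation of 0.621 over genes. Of 10 such prefixes 5 were shared by several mice, in each case inside 1 group. A limma-voom fit that lets these mice be correlated called 376 genes higher and 94 lower, against 1889 and 1903 in edgeR without that term.

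GWI colons had more Erbb3 and less Cdh19 and Foxd3 than control colons by edgeR's quasi-likelihood test, adjusted over all 14146 genes and called at an adjusted p under 0.05. That is 1 of 8 genes higher and 2 of 8 lower, beside 13.4% of all tested genes called higher and 13.5% called lower. With name prefixes correlated Foxd3 was not called (adjusted p = 0.289), which leaves 1 of 8 higher and 1 of 8 lower, beside 2.66% and 0.664% of all genes. The median log2 fold change of the 8 was -0.90, against -0.06 over all tested genes. Upper-quartile scaling moved the median of all genes to -0.15 and the split of calls from 1889 higher and 1903 lower to 1214 and 2992. In whole tissue, fewer glial cells and less RNA per glial cell cannot be told apart.

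**Figure D1:**
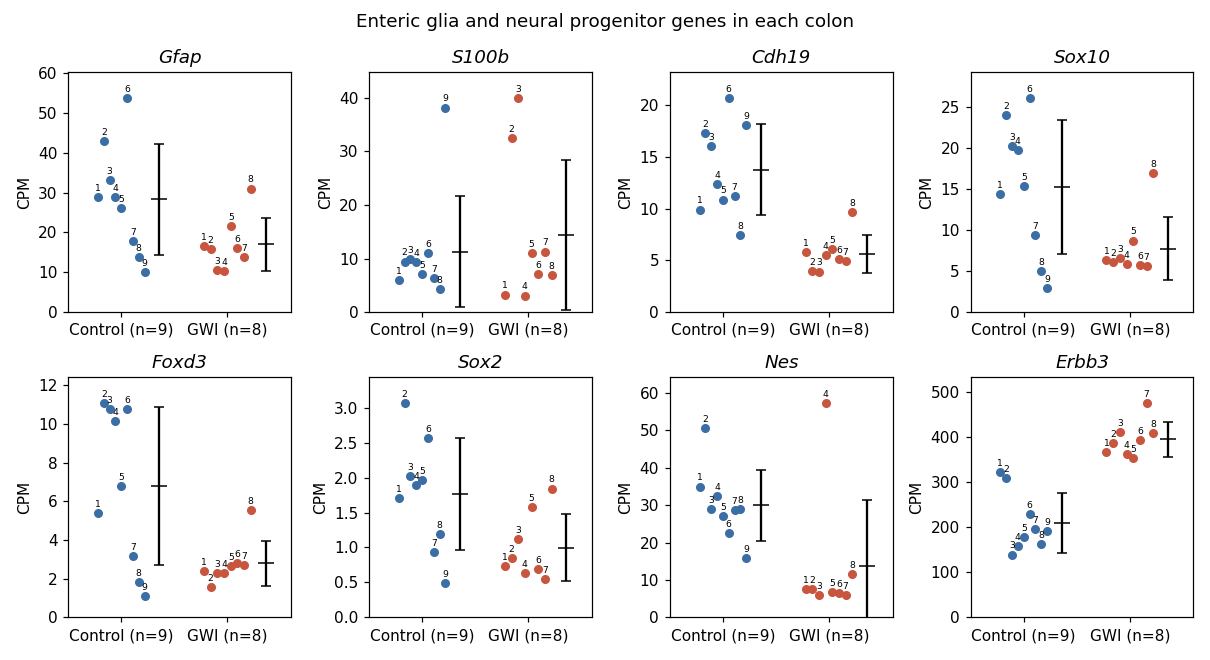
Level of each of the 8 genes in CPM (linear axes from 0) in 9 Control and 8 GWI colons. Each point is 1 mouse with its replicate number, and the bar beside each group is the mean ± SD. Every GWI mouse lies above every Control mouse for Erbb3, and S100b and Nes each have high points far from the rest of their group.

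Gfap encodes the intermediate filament protein of glia and astrocytes. In Control mice its level was 10.0 CPM at the lowest, 28.9 at the median and 53.9 at the highest, and in GWI mice 10.28, 15.98 and 31.03 CPM. The groups overlapped over most of their range: 5 Control mice (replicates 1, 4, 5, 7 and 8) lay inside the GWI range, 3 lay above it, replicate 9 lay just below it, and 7 of 8 GWI mice were under the Control median. The mean was 28.4 ± 13.9 CPM (SD, n = 9) in Control and 17 ± 6.71 CPM (SD, n = 8) in GWI, a log2 fold change of -0.74 (SE 0.294) that missed the threshold in edgeR (adjusted p = 0.0674). Over the 13 other fits its adjusted p ran from 0.000413 by limma-voom to 0.995 with smooth muscle markers as a covariate, and 4 of them passed; it was 0.0421 by DESeq2 and 0.302 with name prefixes correlated. With 1 mouse left out, edgeR's adjusted p ran from 0.0230 (without Control replicate 9) to 0.138 (without Control replicate 6), and 3 of 17 such fits passed, the others being without Control replicate 8 and without GWI replicate 8. The paper instead names Gfap among the top overexpressed genes of GWI colons in its generation of neurons pathway, the opposite direction. Sox9, which the paper also names as overexpressed there, had a log2 fold change of 0.04 here (edgeR adjusted p = 0.8465). The paper names Nes and Sox2 among the under-expressed genes there, the same sign as here, and reports both lower by qPCR. What lies behind the differences for Gfap and Sox9 was not tested.

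S100b encodes a calcium-binding protein of glia. It read 4.26 CPM at the lowest, 9.42 at the median and 38.1 at the highest in Control mice, and 3.10, 9.07 and 40.0 CPM in GWI mice. The medians were close, and 3 mice held the high values: Control replicate 9 at 38.1 CPM, GWI replicate 2 at 32.5 CPM and GWI replicate 3 at 40.0 CPM. The other 14 mice lay at 11.3 CPM or below. The fold change was 0.36 on the log2 scale (SE 0.520, edgeR adjusted p = 0.624), and it fell below 0 without GWI replicate 3, to -0.07. Control replicate 9 had the lowest Gfap, Sox10, Foxd3, Sox2 and Nes of its group, with Cdh19 near the top of it at 18.05 CPM.

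Cdh19 encodes a cadherin of Schwann cells and enteric glia, an adhesion protein of the cell surface. Its lowest, median and highest levels were 7.42, 12.4 and 20.7 CPM in Control mice and 3.92, 5.31 and 9.69 CPM in GWI mice. Overlap was slight: 7 of 8 GWI mice lay below the lowest Control mouse, and GWI replicate 8 was the exception. Cdh19 fell from 13.8 ± 4.43 CPM (SD, n = 9) to 5.63 ± 1.82 CPM (SD, n = 8), a log2 fold change of -1.29 (SE 0.215, edgeR adjusted p = 0.000947). The call passed in all 13 other fits, and its highest adjusted p, 0.0386, came from the fit that let mice sharing a name prefix be correlated. For 0 of the 8 genes, and 0.523% of all tested genes, was every GWI mouse below every Control mouse.

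Sox10 encodes the SRY-box transcription factor that specifies the glial lineage. Control mice ran from 2.93 CPM through a median of 15.3 to 26.1 CPM, and GWI mice from 5.65 through 6.18 to 16.9 CPM. The GWI mice were tightly grouped apart from replicate 8, while Control mice were spread, with 4 above every GWI mouse and 2 below every GWI mouse. The log2 fold change was -0.98 (SE 0.363) and missed the threshold in edgeR (adjusted p = 0.0525). Its adjusted p was 0.0246 by DESeq2, 0.328 with name prefixes correlated and 0.980 with the smooth muscle covariate, and 6 of the 13 other fits passed. With 1 mouse left out, edgeR's adjusted p ran from 0.0126 without Control replicate 9 to 0.0981 without Control replicate 6, and it also passed without Control replicate 7, Control replicate 8 or GWI replicate 8.

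Foxd3 encodes a forkhead repressor that keeps neural crest progenitors from maturing and is used again in glia. Its lowest, median and highest levels were 1.11, 6.77 and 11.1 CPM in Control mice and 1.59, 2.52 and 5.53 CPM in GWI mice. All 8 GWI mice were under the Control median, yet Control replicate 9 lay below every GWI mouse and Control replicate 8 below all but replicate 2. Foxd3 fell from 6.77 ± 4.08 CPM (SD, n = 9) to 2.78 ± 1.17 CPM (SD, n = 8), a log2 fold change of -1.28 (SE 0.399, edgeR adjusted p = 0.0248). The call passed in 10 of the 13 other fits. Among the 3 where it was lost were those with the smooth muscle markers as a covariate (-0.27, adjusted p = 0.587) and with name prefixes correlated (-0.97, adjusted p = 0.289).

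Sox2 encodes a transcription factor of neural stem cells that enteric glia also use. Between 7 and 58 reads were counted in a Control mouse and between 9 and 31 in a GWI mouse. The lowest, median and highest levels were 0.488, 1.89 and 3.07 CPM in Control mice and 0.553, 0.789 and 1.84 CPM in GWI mice. All 8 GWI mice lay under the Control median, and 5 Control mice lay above every GWI mouse. The log2 fold change of -0.82 (SE 0.325) missed the threshold in edgeR (adjusted p = 0.0667). The adjusted p was 0.0428 by DESeq2, 0.291 with name prefixes correlated and 0.619 with the smooth muscle covariate, and 4 of 12 other fits passed. In edgeR with 1 mouse left out it ran from 0.0211 without Control replicate 9 to 0.123 without GWI replicate 7, and it also passed without Control replicate 7, GWI replicate 5 or GWI replicate 8.

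Nes encodes nestin, an intermediate filament protein of neural progenitors that blood vessel cells also make. Control mice ran from 15.8 CPM through 29.0 to 50.5 CPM, and GWI mice from 5.85 through 7.18 to 57.3 CPM. GWI replicate 4 was the highest of all 17 mice, at 57.3 CPM, and the other 7 GWI mice, at 5.85 to 11.7 CPM, were below every Control mouse. With all mice the log2 fold change was -1.14 (SE 0.434, edgeR adjusted p = 0.0589), and without GWI replicate 4 it was -2.01 (adjusted p = 0.000128). DESeq2, which by default replaces a count that lies far from its group when groups are this large, gave -1.74 (adjusted p = 1.82e-09). The log2 fold change was -1.70 with name prefixes correlated (adjusted p = 0.0960) and -0.99 with the smooth muscle covariate (adjusted p = 0.171), and 4 of the 13 other fits passed. Of 17 edgeR fits with 1 mouse left out 2 passed, the other being without Control replicate 9, and the highest adjusted p was 0.108, without GWI replicate 7.

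By DESeq2, 6 of the 8 genes were lower and 1 higher, beside 14.8% of its tested genes called lower and 13.4% called higher. In edgeR, 6 of the 8 were lower without Control replicate 9 and 5 without GWI replicate 8, beside 15.8% and 13.7% of all genes tested in those fits. Without Control replicate 7 it was 4, beside 12.8%, and without Control replicate 8 also 4, beside 14%. With name prefixes correlated, 1 was lower (Cdh19) and 1 higher (Erbb3).

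Erbb3 encodes a receptor for neuregulins that signals together with ERBB2, in Schwann cells and glia and also in gut epithelium. In Control mice its lowest, median and highest levels were 139.5, 190.8 and 322.5 CPM, and in GWI mice 353.9, 389.9 and 476.4 CPM. No overlap was seen, with every GWI mouse above every Control mouse, as for 1.83% of all tested genes. Erbb3 rose from 209.7 ± 65.7 CPM (SD, n = 9) to 395.3 ± 39.1 CPM (SD, n = 8), a log2 fold change of 0.91 (SE 0.155, edgeR adjusted p = 0.00106). The call passed in all 13 other fits, with a highest adjusted p of 0.0303 with name prefixes correlated.

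Erbb3 was also set apart by its level. Divided by the length of its merged exons, it averaged 34.9 CPM per kilobase in Control mice, against 7.61 for S100b, 6.73 for Gfap, 4.99 for Sox10, 4.68 for Nes, 3.22 for Cdh19, 2.91 for Foxd3 and 0.856 for Sox2. The spread over mice was wide, and the means of Gfap, S100b, Sox10 and Nes differed by less than 1 SD of S100b, 6.94 CPM per kilobase. That SD, and the place of S100b above Gfap, depended on Control replicate 9. S100b stood at 25.7 CPM per kilobase in that mouse (38.1 CPM, beside 4.26 to 11.03 CPM in the other Control mice). In GWI mice Erbb3 stood at 65.7 CPM per kilobase, and the order of the other genes had S100b at 9.70, Gfap at 4.03, Sox10 at 2.53, Nes at 2.13, Cdh19 at 1.32, Foxd3 at 1.20 and Sox2 at 0.486. The Nes mean was carried by GWI replicate 4, at 8.93 CPM per kilobase. The place of Nes above Cdh19 and Foxd3 depended on that mouse.

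Of 16 listed genes of the neuregulin and ERBB pathway, 14 were tested, 7 were called higher in edgeR, beside 13.4% of all tested genes, and 0 lower, and their log2 fold changes had a median of 0.31. With name prefixes correlated 3 were called higher, beside 2.66% of all genes. By limma-voom with quality weights 9 were called higher and 2 lower, beside 27.6% and 29.5%. Just 1 was called lower by DESeq2 (beside 14.8% of all genes), with upper-quartile factors (21.2%) and with the neuron covariate (20.1%). In edgeR 1 was also called lower without Control replicate 2 (12.8%), Control replicate 9 (15.8%) or GWI replicate 5 (14.5%). The receptor partner Erbb2 rose by 0.87 on the log2 scale (SE 0.175, edgeR adjusted p = 0.00275), and its per-length mean went from 27.96 to 51.14 CPM per kilobase. Egfr rose by 0.42, the ligands Hbegf, Tgfa and Ereg by 1.15, 0.77 and 0.69, the sheddase Adam17 by 0.33 and the adaptor Grb7 by 0.67. The 3 called with name prefixes correlated were Erbb2, Tgfa and Grb7, while Egfr, Hbegf, Ereg and Adam17 were not called there. Nrg1, the neuregulin that supports Schwann cells and glia, had a log2 fold change of -0.49 (SE 0.188) that missed the threshold (edgeR adjusted p = 0.0602). Erbb4 had at most 4 reads in any mouse and failed the filter.

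Of 11 markers of colon epithelium, 5 were called higher (Cdh1, Vil1, Muc2, Cdx2 and Epcam) and 0 lower, beside 13.4% and 13.5% of all tested genes. Only Cdh1 was called higher with name prefixes correlated. In edgeR the other 6 did not pass, 2 of the 11 had a negative log2 fold change, and the median was 0.40. Their summed level overlapped between groups, at 25630 to 42290 CPM in Control mice and 29980 to 47850 CPM in GWI mice, with Car1 the most abundant and its log2 fold change at -0.06. The part of the epithelium in the Erbb3 difference was not tested.

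Smooth muscle markers come from the layers between which the myenteric ganglia lie. All 10 had a negative log2 fold change and 7 were called lower, beside 13.5% of all tested genes, with a median of -0.91. None of the 10 was called with name prefixes correlated, beside 0.664% of all genes lower. Their summed level had a median of 11580 CPM in Control mice and 5142 CPM in GWI mice, and Myh11 was the most abundant. With the log2 sum of these markers as a covariate in edgeR, the log2 fold change was 0.00 for Gfap (adjusted p = 0.995), -0.01 for Sox10 (0.980), -0.19 for Sox2 (0.619) and -0.27 for Foxd3 (0.587). Cdh19 stayed at -1.14 (adjusted p = 0.000794) and Erbb3 at 1.04 (adjusted p = 0.000373), so 1 gene was called lower and 1 higher, beside 19.9% and 18.2% of all genes in that fit. The covariate was itself measured in these libraries and differed between the groups, so it does not separate treatment from tissue content.

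**Figure D2:**
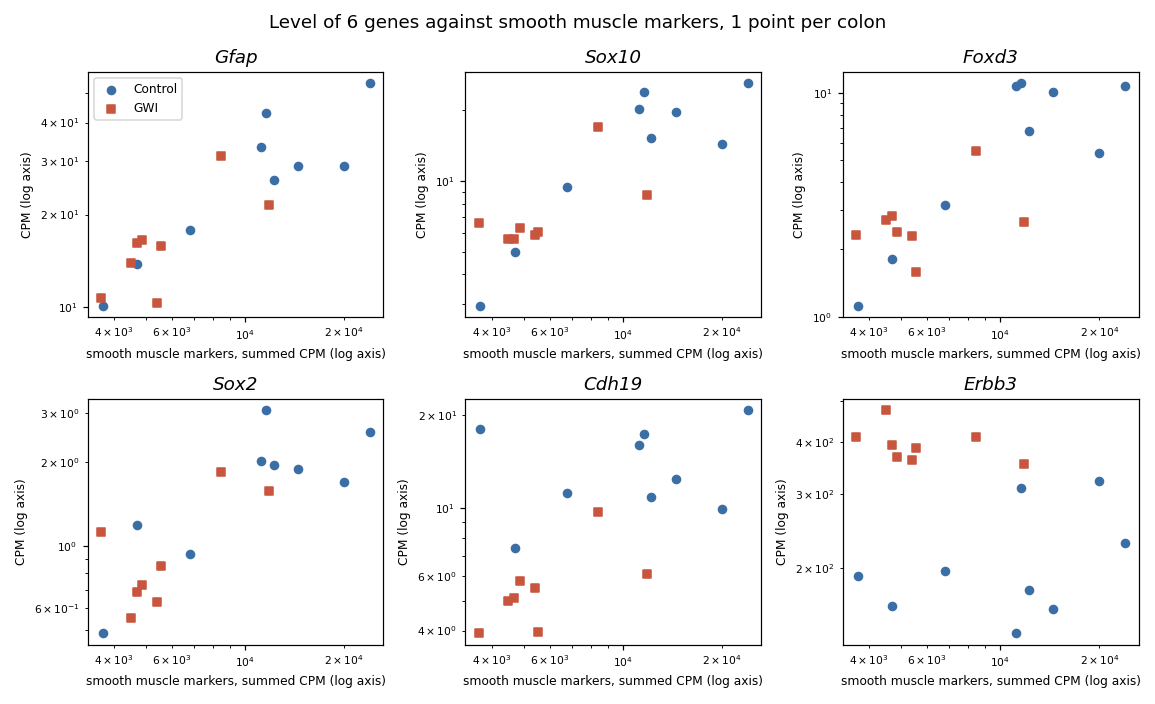
Level of 6 genes (vertical axes, CPM) against the summed level of 10 smooth muscle markers (horizontal axes, CPM), both on log axes, with 1 point per colon. Control mice are circles and GWI mice squares. Gfap, Sox10, Foxd3 and Sox2 follow the muscle markers over Control mice, Cdh19 lies lower in GWI mice at a similar muscle level, and Erbb3 lies higher in GWI mice.

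Inside the Control group 4 of the 8 genes varied with the muscle sum, beside 34.6% of all tested genes. For these 4 the relation did not pass without the 2 mice named below. Pearson's r over 9 Control mice was 0.899 for Gfap, 0.889 for Sox10, 0.846 for Foxd3 and 0.803 for Sox2, with exact permutation p of 0.00125, 0.00156, 0.00499 and 0.00889. These permutation tests, like those of ratios that follow, take mice as independent and make no allowance for shared name prefixes, which Control replicates 3, 4 and 5 have in common, as do Control replicates 7 and 8. No prefix holds enough mice for a value of its own. Adjusted over all tested genes these were 0.0105, 0.0116, 0.0222 and 0.0320 by exact permutation, at a threshold that 4900 genes passed. Spearman's rho was 0.75, 0.70, 0.633 and 0.60, with exact permutation p of 0.0255, 0.0432, 0.0760 and 0.0968. Without Control replicates 8 and 9, whose muscle sums lay farthest from the median on the log2 scale, r was 0.70, 0.604, 0.480 and 0.549 over 7 mice, and none of the 4 passed (exact permutation p, adjusted over all tested genes, of 0.336, 0.425, 0.543 and 0.462). Over 8 GWI mice 0 of all tested genes passed after adjustment (3097 had an unadjusted exact permutation p under 0.05), and r ranged from -0.440 for Erbb3 to 0.738 for Gfap. In all, 16 such relations were computed.

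As a ratio to the muscle sum, taken inside each library, 1 of the 8 genes differed between groups. The log2 ratio of Erbb3 to muscle was 1.81 higher in GWI mice (exact permutation p = 0.000494, adjusted over all tested genes 0.0176), in a comparison where 3227 of 14146 genes passed in that direction, 1 passed in the other, and the median difference over all genes was 0.82. Cdh19 had a difference of -0.35 (exact permutation p = 0.363) and Foxd3 of -0.07 (exact permutation p = 0.812). For Cdh19 the ratio and the covariate fit gave different calls. Control replicate 9 had the highest Cdh19 ratio, -7.64, and without it the difference was -0.11.

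As a ratio to the sum of 12 enteric neuron markers, no gene passed after adjustment over all tested genes. With the log2 sum of these markers as a covariate in edgeR, by contrast, Cdh19 and Foxd3 were called lower and Erbb3 higher, 2 and 1 of the 8, beside 20.1% and 18.6% of all genes. For the ratios, the exact permutation p was 0.0119 for Erbb3 (1.34 higher in GWI mice) and 0.0363 for Nes (-1.18), both before adjustment, while 0 of 14146 genes passed after adjustment and 1069 higher and 24 lower had an unadjusted p under 0.05. The neuron markers all had negative log2 fold changes, with 1 of 12 called lower, beside 13.5% of all tested genes, and none with name prefixes correlated. Their sum ran from 101.2 to 708.9 CPM in Control mice and from 125.1 to 473.8 CPM in GWI mice.

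Members were next compared with each other as log2 ratios in 28 pairs, with p-values adjusted over the pairs. Of the 7 pairs with Erbb3, 6 differed between groups, the exception being the pair with S100b. These 6 all hold the values of Erbb3, itself called higher, and are not separate results. How many of the other tested genes would differ from Erbb3 in this way was not computed. Erbb3 relative to Cdh19 was 2.17 higher in GWI mice (exact permutation p = 8.23e-05, adjusted 0.00230). Of the 21 pairs without Erbb3, 0 passed after adjustment and 4 had an unadjusted exact permutation p under 0.05.

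Across the 17 mice, with the mean of each group taken out, Sox10, Foxd3, Gfap and Sox2 varied together. Pearson's r was 0.961 for Sox10 with Foxd3, 0.928 for Sox10 with Gfap and 0.899 for Sox10 with Sox2, given as description. Cdh19 followed less closely, at 0.537 with Gfap, and Erbb3 at 0.278 with Gfap. S100b and Nes followed none of the others, and with each other they had r = -0.559. High r was common in these libraries: over all tested genes, the highest r with any other tested gene had a median of 0.930. That highest r was 0.988 for Sox10, 0.972 for Foxd3, 0.962 for Gfap and 0.907 for Sox2. The share of other gene pairs with r as high as those of these genes was not computed.

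The genes whose pattern was most like Sox10 were Gpr37l1 (r = 0.988), Islr (0.972) and Col18a1 (0.972), and for Foxd3 they were Gpr37l1 (0.972), Chadl (0.967) and Entpd2 (0.966). Gpr37l1 and Entpd2 are themselves genes of enteric glia. Gfap was nearest to Flt4 (0.962), S1pr3 (0.956) and Adam23 (0.955), Sox2 to Plekhb1 (0.907), Zfp428 (0.898) and Ccdc60 (0.895), and Cdh19 to Srpk2 (0.920), Lrrc49 (0.861) and Musk (0.849). Erbb3 was nearest to Etl4 (0.905), Irf1 (0.889) and Txnip (0.883).

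No tested gene followed S100b or Nes closely. The highest r was 0.651 for S100b (Lyrm1, then Atg12 at 0.651 and Slc4a11 at 0.644) and 0.694 for Nes (Rad9a, then Il4 at 0.650 and Ubtd2 at 0.640). Over all tested genes the median of such highest values was 0.930, and only 6 genes lay below S100b and 26 below Nes. Among 1044 genes with a mean over 5 CPM and a within-group SD over 0.6 on the log2 scale, S100b and Nes were the lowest of all, a comparison chosen after their values were seen. The row of Il4 stands with those of Il6 and Chat at the head of a table that is otherwise in alphabetical order. Il6, named here after its values were seen, averaged 175 CPM in Control and 205.8 CPM in GWI mice. What sets the S100b and Nes counts apart was not tested. Their values are given as deposited and were not compared with counts made from the raw reads, so how far they can be relied on is not known.

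Of 19 other listed genes of enteric glia and Schwann cells, 15 passed the filter, and in edgeR 6 were called lower and 1 higher, beside 13.5% and 13.4% of all tested genes. With name prefixes correlated 0 were called lower and 0 higher, beside 0.664% and 2.66% of all genes, and with the smooth muscle covariate 3 lower and 2 higher, beside 19.9% and 18.2%. The median of their log2 fold changes was -0.62. Ngfr, the p75 neurotrophin receptor of neural crest progenitors and glia, fell by 2.32 on the log2 scale (SE 0.456, edgeR adjusted p = 0.00247), from a Control median of 76.2 CPM to a GWI median of 12.2 CPM. Control replicate 9 was again the exception, with Ngfr at 2.23 CPM, below every GWI mouse. The paper also reports less Ngfr in GWI colons by RNA-seq and qPCR, and less p75 protein by flow cytometry and staining.

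Scn7a, Col28a1, Lgi4 and Ednrb fell by 0.72, 0.62, 0.87 and 0.82 on the log2 scale. Mbp, which encodes myelin basic protein and is also read outside glia, rose by 0.32. None of these 5 was called with name prefixes correlated (adjusted p = 0.0959, 0.106, 0.219, 0.145 and 0.0952). With the smooth muscle covariate Scn7a, Lgi4 and Ednrb were not called by edgeR (adjusted p = 0.0525, 0.325 and 0.0810), while Col28a1 (0.0177) and Mbp (0.0404) were. Gpr37l1 had a log2 fold change of -0.78 that missed the threshold (edgeR adjusted p = 0.0866), and Entpd2, an ATP-hydrolysing enzyme of glia, had 0.04 (adjusted p = 0.881), and 0.44 with the smooth muscle covariate, where it was called higher (adjusted p = 0.0347). Ngfr was still called lower with the smooth muscle covariate, at -2.12 (adjusted p = 0.00459), and was not called with name prefixes correlated (adjusted p = 0.174). The myelin gene Mag, the Schwann cell factor Egr2 and the glial lipid carrier Fabp7 were among those that failed the filter.

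Of 12 other neural crest and enteric progenitor genes, 8 were tested, 2 were called lower (Zeb2 at -0.48 and Snai2 at -0.82) and 0 higher. Among 11 other intermediate filament genes Vim and Nefl were called lower, at -0.64 and -0.88. Among 9 tested genes of the S100 family S100a4 was lower, at -0.996, and among 11 tested SOX genes 2 were lower and 1 higher. Hence the call rates of these families were 2 of 8, 2 of 11, 1 of 9 and 2 of 11 lower, beside 13.5% of all tested genes. No gene of these families was called with name prefixes correlated.

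Other tissues were read from fixed marker lists, with calls from edgeR beside 13.5% of all tested genes lower and 13.4% higher. None of the markers in the lists that follow was called with name prefixes correlated. Of 8 blood vessel endothelium markers 4 were lower, and of 6 tested pericyte markers 3 were lower, with Rgs5 the most abundant at 84.1% of their sum. Of 7 fibroblast markers 2 were lower, of 7 macrophage markers 1 was lower, and of 7 enteroendocrine markers 1 was lower. Of 5 markers of interstitial cells of Cajal 1 was higher, of 7 adipocyte markers 1 was higher, and the 1 tested squamous marker passed in neither direction. Of 6 tested small intestine markers 2 were lower, with their sum at 395.5 to 1004 CPM in GWI mice, 609.2 to 1610 CPM in 8 Control mice and 2431 CPM in Control replicate 9. With the log2 sum of the small intestine markers as a covariate in edgeR, 5 of the 8 glial and progenitor genes were called lower and 1 higher, beside 11.2% and 12.4% of all genes. The part of the other tissues named here in the glial differences was not tested.

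The promoters of the genes that varied together are shown for the 3 of them with an entry among RefSeq promoters (GRCm38.p6), as windows given with that set, 5′ to 3′ along the gene's strand. By the GENCODE positions below, the Foxd3 window spans the start of the gene, the Sox2 window ends before it and the Gfap window lies inside the gene. Capitals mark 3 forms of the core bound by SOX proteins, searched on both strands. Other forms of that core were not searched and, where present, stay in lower case. These were ACAAAG, its variant ending in TG, which reads ACAATG, and a further variant with a final A in place of that G, written ACAATA. Of 14039 promoters of tested genes, 23.6% hold at least 1 of these. The Sox2 window, chr3:34649745-34650044 on the plus strand, holds ACAAAG once, and neither the Gfap window, chr11:102897151-102897450 on the minus strand, nor the Foxd3 window, chr4:99656049-99656348 on the plus strand, holds any of the 3 forms searched.
Sox2: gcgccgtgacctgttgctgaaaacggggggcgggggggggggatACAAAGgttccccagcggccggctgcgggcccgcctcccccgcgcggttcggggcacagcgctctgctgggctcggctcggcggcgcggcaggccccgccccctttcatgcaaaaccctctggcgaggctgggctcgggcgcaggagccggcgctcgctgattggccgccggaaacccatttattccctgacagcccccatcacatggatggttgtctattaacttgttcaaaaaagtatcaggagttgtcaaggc
Gfap: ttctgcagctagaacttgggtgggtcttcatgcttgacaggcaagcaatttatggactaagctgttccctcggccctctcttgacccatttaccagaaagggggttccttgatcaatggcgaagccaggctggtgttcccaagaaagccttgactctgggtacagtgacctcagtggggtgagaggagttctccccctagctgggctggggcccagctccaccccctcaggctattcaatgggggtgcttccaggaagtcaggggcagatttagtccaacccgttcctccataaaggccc
Foxd3: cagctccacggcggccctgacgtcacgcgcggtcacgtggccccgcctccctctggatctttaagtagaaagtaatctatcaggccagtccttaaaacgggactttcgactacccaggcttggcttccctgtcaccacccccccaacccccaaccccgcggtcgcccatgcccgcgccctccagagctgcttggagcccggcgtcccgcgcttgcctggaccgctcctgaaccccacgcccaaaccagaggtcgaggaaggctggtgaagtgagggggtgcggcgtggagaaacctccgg

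By GENCODE M21 on GRCm38, the build of the counts, Gfap (ENSMUSG00000020932.14) spans bases 102887336 to 102900912 of chromosome 11, Cdh19 (ENSMUSG00000047216.8) bases 110888326 to 110977584 of chromosome 1, and Foxd3 (ENSMUSG00000067261.4) bases 99656299 to 99658622 of chromosome 4. Erbb3 (ENSMUSG00000018166.8) lies at 128567523 to 128589652 of chromosome 10, and S100b (ENSMUSG00000033208.7) at 76253853 to 76261159 of the same chromosome. Sox10 (ENSMUSG00000033006.10) lies at 79154908 to 79165240 of chromosome 15, and Sox2 (ENSMUSG00000074637.7) and Nes (ENSMUSG00000004891.16) lie on chromosome 3, at 34650405 to 34652461 and 87971078 to 87980451. Exons of 7 of the 8 overlap no exon of another gene, and Foxd3 overlaps a microRNA gene on its own strand.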

How the data were processed

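RNA-seq was run on colon from 9 Control and 8 GWI mice. The authors deposited a table of raw read counts per gene symbol. By the submitters' notes and the study's methods, reads were trimmed with Trimmomatic 0.36, aligned to GRCm38 with STAR 2.5.2b and counted per gene with featureCounts. The annotation release and strand setting are not given in the sources used here. In this work counts were filtered with filterByExpr, scaled by TMM and compared with edgeR 4.0.16 (quasi-likelihood test, robust) in R 4.3.3, with Benjamini-Hochberg adjustment over all tested genes. Alternatives used DESeq2 1.42.0, limma 3.58.1, other scalings and filters, covariates, a replicate block, and each mouse left out.

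Ratios (pseudocount 0.5 CPM) and correlations were tested by exact two-sided permutation over mice in numpy 2.4.6. Ratios between members were adjusted over their 28 pairs, as planned. For ratios to muscle and neuron sums, and for correlations, adjustment was planned over the members alone and was made over all tested genes, a choice made after seeing the data. The same members passed either way. Code was tested on simulated data. Within-group pairs of libraries all differed by more than sampling noise, with a chi-square per degree of freedom of at least 9.06.

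Named genes were the members, the genes of fixed lists and the 3 genes most correlated with each member. The members and lists alike were chosen with earlier results of these data known. Lengths and positions are from GENCODE M21. Areg, in a list, had no row in the table used here. Of the listed genes, 2 are counted with their list and not otherwise reported here.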

Additional observations from a re-analysis of the deposited data

Results flagged for a closer look

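In 52 groups of values (8 genes and the sums of the 18 other gene lists, each in Control and in GWI mice), 12 had a mouse whose gap to its nearest neighbour was large for the range of the group by Dixon's ratio. All 12 were high values. For independent values with a normal spread, chance gives about 1 in 20 groups. These groups share mice and some genes and were taken as CPM without logs, so that rate does not hold for them. S100b was 38.1 CPM in Control replicate 9, with the other Control mice at 4.26 to 11.03 CPM. Nes was 57.3 CPM in GWI replicate 4, with the other GWI mice at 5.85 to 11.7 CPM. GWI replicate 8 was high in 3 genes at once: Sox10 at 16.9 CPM beside 5.65 to 8.70, Cdh19 at 9.69 CPM beside 3.92 to 6.12, and Foxd3 at 5.53 CPM beside 1.59 to 2.81. Erbb3 was 476.4 CPM in GWI replicate 7, beside 353.9 to 411.6 CPM.

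Among the marker sums, other glia and Schwann cell genes reached 1397 CPM in Control replicate 1, beside 400.6 to 692.6 CPM, with Pmp22 as their most abundant gene. Pericyte markers summed to 1935 CPM in Control replicate 6, beside 551.4 to 1180 CPM, and adipocyte markers to 872.4 CPM in GWI replicate 7, beside 99.24 to 385.6 CPM. Other intermediate filament genes summed to 3691 CPM in GWI replicate 5, beside 1129 to 1876 CPM. Markers of interstitial cells of Cajal reached 534.1 CPM in Control replicate 1, beside 221.7 to 306.6 CPM, and 455.0 CPM in GWI replicate 5, beside 285.0 to 364.3 CPM. What sets these mice apart was not tested.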

How the results depend on the processing

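Erbb3 was called higher and Cdh19 lower in all 13 other fits and with any 1 mouse left out. Genes called higher numbered 1889, against 1214 with upper-quartile factors, 3911 by limma-voom with quality weights and 376 with name prefixes correlated. Genes called lower numbered 1903, against 2992, 4180 and 94 in those fits and 826 with a replicate block. Of the 8 members, 2 were called lower, against 6 with upper-quartile factors (beside 21.2% of all genes), by DESeq2 (14.8%) and by limma-voom (29.5%), 5 with the small intestine covariate (11.2%), and 1 with name prefixes correlated (0.664%) or the smooth muscle covariate (19.9%). With 1 mouse left out this count ran from 2 to 6.

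Replicate numbers are shared between groups, and the labels do not state that they pair the mice. Deviations of same-numbered mice correlated between -0.506 and 0.115, and no mouse correlated best with its own number. Low correlations of this kind cannot show that no pairing was made. With the replicate block in edgeR 1415 genes were higher, Nes passed (adjusted p = 0.0147) and Foxd3 did not (-1.35, adjusted p = 0.0627). Replicate number 9 occurs only in Control, so that fit in effect leaves out Control replicate 9. Nes also passed in edgeR when that mouse alone was left out.

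Signs changed only for values that had not passed. The log2 fold change of Gfap was 0.0016 with the smooth muscle covariate, and that of S100b was -0.11 there, -0.0319 with name prefixes correlated, and -0.0677 to 0.87 with 1 mouse left out. With 1 mouse left out, the ratio to muscle ran from -0.022 to 0.19 for Sox10 and from -0.19 to 0.0843 for Foxd3 (0.12 with pseudocount 2). Sox2 relative to neurons was 0.0677 with pseudocount 2. Gfap relative to Sox2 was 0.0899 with pseudocount 0.05 and -0.15 to 0.0223 with 1 mouse left out, and Cdh19 relative to Foxd3 was -0.40 to 0.0043. Without the 2 mice farthest from the muscle median, r became 0.329 for S100b and -0.198 for Nes in Control mice, and -0.462 for Sox10, -0.523 for Sox2 and -0.451 for Foxd3 in GWI mice. The cause of these changes was not tested. Sox2 dropped out under the filter of 10 counts in every mouse.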
